A study of Schizosaccharomyces pombe with 8 samples.

Results

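The response to hydrogen peroxide (H2O2) of fission yeast, Schizosaccharomyces pombe, without glutathione reductase was measured by setting 2 treated against 2 untreated libraries of a pgr1 deletion strain, 4 of the 8 libraries of the study. Of 5165 genes, 5015 had at least 10 normalized counts in at least 2 of these 4 libraries and were tested. Cultures in the rich medium YE5S were kept at 30 °C to an OD600 of 0.5, and the treated ones then received 1 mM H2O2 for 30 min. The other 4 libraries came from wild type, strain 972, 2 untreated and 2 treated with the same dose for the same time. The labels name no further allele or agent, and there was 1 deletion strain.

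Glutathione is the main small thiol of the cell, and glutathione reductase, the product of pgr1, uses electrons from NADPH to return its oxidised form to the reduced one. In fission yeast H2O2 is read by separate routes. At low doses the peroxiredoxin Tpx1 passes oxidation on to the transcription factor Pap1, which raises antioxidant and detoxification genes. At high doses the stress kinase Sty1 activates the factor Atf1, which raises a broad set of core stress genes, while transcripts for growth and ribosome assembly go down.

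Levels are the authors' DESeq2-normalized counts. Unless stated otherwise, a value with ± is the log2 fold change of the mutant with H2O2 and its standard error (n = 2 libraries in each group). A gene is called where the Benjamini-Hochberg adjusted p from limma is below 0.05. Recovered reads ranged from 12026222 to 14125543 per library. Since the labels name no separate cultures for libraries of 1 group, the p-values rest on a spread that may be technical. The deleted gene checked the labels. The pgr1 transcript (SPBC17A3.07) had 159 and 91.4 normalized counts before and 92.9 and 105 after H2O2 in the mutant. The wild type had 4939 and 4805 before and 7201 and 6792 after treatment. All 4 mutant libraries lay far below all 4 wild-type libraries. With H2O2 pgr1 was at -0.29 ± 0.21 in the mutant and was not called (limma, Benjamini-Hochberg adjusted p = 0.247). Without the second untreated mutant library it was called, at -0.68.

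The mutant still raised and lowered a large part of its transcripts with H2O2. In the mutant 1794 genes were called higher (35.8% of those tested) and 1634 lower (32.6%), together 3428 (68.4%), with a median of 0.01 over all tested genes. At least 2-fold changes were called for 487 genes higher (9.71%) and 397 lower (7.92%), and 39 genes rose and 22 fell at least 8-fold. In wild type 1893 genes (37.7%) were called higher and 1741 (34.7%) lower. It gave 690 genes at least 2-fold higher (13.8%) and 593 lower (11.8%), and 123 genes rose and 18 fell at least 8-fold. In bulk RNA, fewer cells of a type and less RNA per cell cannot be told apart.

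The genes that the mutant moved were mostly those that wild type moved. Of the 487 genes at least 2-fold higher in the mutant, 405 (83.2%) were at least 2-fold higher in wild type too, 48 were called higher there by less, 28 were not called and 6 were called lower. Of the 397 genes at least 2-fold lower, 307 (77.3%) were at least 2-fold lower in wild type, 63 were called lower by less, 26 were not called and 1 was called higher. Read from the wild-type side, 405 of 690 genes (58.7%) rose at least 2-fold in the mutant as well and 307 of 593 (51.8%) fell at least 2-fold. The difference of the responses, tested in the same model, was called for 606 genes with a higher value in the mutant (12.1%) and 772 with a lower value (15.4%). These counts depended on single libraries. Without the second treated mutant library they were 315 and 461, and without the first the count of lower values was 489.

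**Figure D1:**
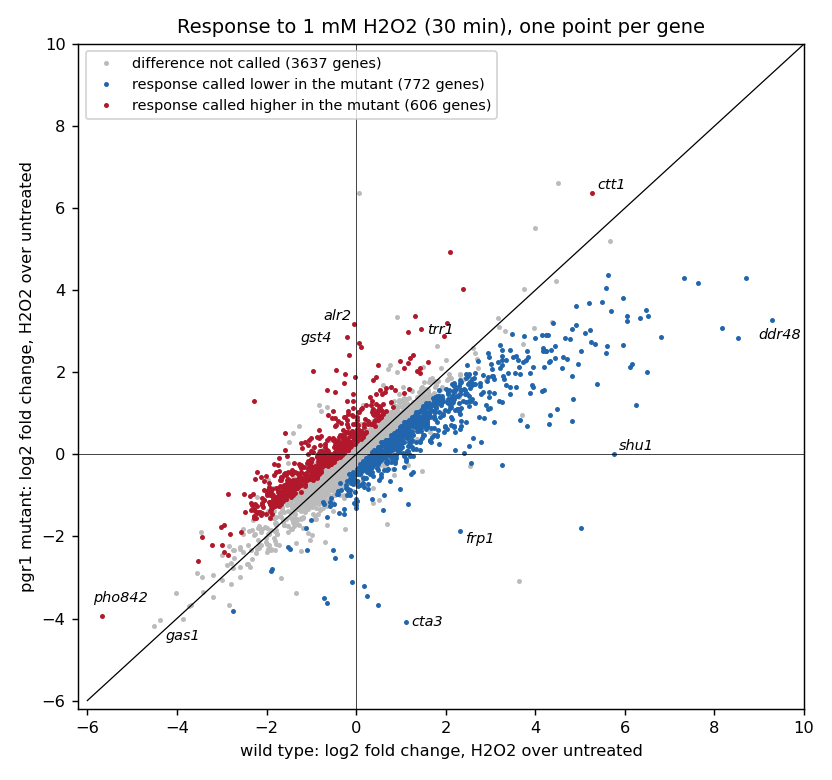
Each point is 1 of 5015 genes, with the log2 fold change with H2O2 in wild type on the x axis and in the pgr1 mutant on the y axis; the diagonal marks equal responses and colours mark a called difference. ddr48 lies far below the diagonal, at 9.28 in wild type and 3.27 in the mutant, while ctt1, trr1, gst4 and alr2 lie above it.

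Before treatment most genes that responded strongly in wild type had a similar level in both strains, and a smaller share was higher in the mutant. Among the 690 genes at least 2-fold higher in wild type, the response was called smaller in the mutant for 449 and larger for 18. Before treatment the mutant's mean was within 2-fold of that of wild type for 493 of the 690 genes (71.4%), over 2-fold above for 187 (27.1%) and over 2-fold below for 5. After treatment its mean was within 2-fold of that of treated wild type for 571 (82.8%), over 2-fold above for 74 and over 2-fold below for 45. Among the 593 genes at least 2-fold lower in wild type, the response was called smaller in the mutant for 253 and larger for 8. The untreated mean of the mutant was within 2-fold of that of wild type for 569 of these (96.0%). The treated mean was within 2-fold for 529 (89.2%) and over 2-fold above for 57. Among the 487 genes at least 2-fold higher in the mutant, its response was called smaller than that of wild type for 243 and larger for 71. Among the 397 at least 2-fold lower in the mutant, it was called smaller for 76 and larger for 36. These levels and counts of smaller and larger responses share libraries with the comparison that chose the genes. They are given as a description.

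Several genes of the kinase pathway that carries a strong H2O2 signal rose in the mutant. Of 19 genes of the Sty1 pathway, 10 were called higher and 4 lower, against 35.8% and 32.6% of all tested genes, with a median of 0.38 (0.5 in wild type). The share of the list with a call in either direction was close to the 68.4% of all tested genes. The phosphatase gene pyp2 (SPAC19D5.01), whose product switches Sty1 off, had 533 and 252 normalized counts untreated and 7692 and 7601 after H2O2. It rose by 4.38 ± 0.27 on the log2 scale (limma, Benjamini-Hochberg adjusted p = 1.49e-06), with both treated libraries far above both untreated ones. The gene of the kinase Srk1, which acts downstream of Sty1, went from 2015 and 2050 to 12992 and 12582 normalized counts, a rise of 2.65 ± 0.08. Here too the groups were far apart and the libraries of a group lay close together. The factor genes atf1 and pcr1, whose products bind DNA as a pair, rose by 1.33 ± 0.07 and 2.39 ± 0.08. The rise of each of these 4 genes was called smaller than in wild type, where the values were 5.62, 4.44, 2.10 and 3.26. All 4 genes thus rose in both strains, with the larger rise in wild type. For pyp2 that difference, -1.25 ± 0.38, was lost when any of 5 single libraries was left out and under quantile normalization. The gene sty1 itself did the reverse, with 1.23 ± 0.09 in the mutant against 0.59 ± 0.09 in wild type, a called difference of 0.63 ± 0.13 (limma, Benjamini-Hochberg adjusted p = 0.00808). Transcripts of a pair of upstream kinases went down. Of the kinases that relay the signal to Sty1, wis1 fell by 0.87 ± 0.12 and win1 by 1.09 ± 0.09, with no called difference from wild type.

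The regulator genes of the antioxidant route moved little. The genes pap1 and prr1, the factors of that route, rose by 0.53 ± 0.07 and 0.70 ± 0.07. The rise of pap1 was 0.05 under quantile normalization and was then not called. Of 16 genes of the 2 regulators and the targets of Pap1, 13 were called higher and 2 lower. Over all tested genes these shares were 35.8% and 32.6%. The list median was 1.37 (1.52 in wild type). Under quantile normalization 10 were called higher and 3 lower, with a median of 0.88. The difference of responses was called lower in the mutant for 8 of the 16 and higher for 3. The median ratio of mutant to wild type over this list was 3.77 before and 3.32 after treatment. The Pap1 target caf5, the gene of a spermine transporter, had 12813 and 16119 normalized counts untreated and 17498 and 20262 treated in the mutant. In wild type it had 578 and 569 untreated and 1590 and 1592 treated. All mutant libraries lay above all wild-type ones, and H2O2 added 0.39 ± 0.11 on the log2 scale in the mutant against 1.47 ± 0.11 in wild type. The value in the mutant was 0.05 under quantile normalization and was then not called, nor was it without the first untreated or the second treated library. The transporter genes bfr1 and pmd1, which export drugs, fell by 0.36 ± 0.09 and 0.48 ± 0.08.

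Catalase and the other genes that remove peroxide and superoxide rose in the mutant. All 9 of the 9 genes of this list were called higher, with a median of 1.31 (1.17 in wild type), against 35.8% of all tested genes. The catalase gene ctt1 (SPCC757.07c, chromosome III), whose product splits H2O2 into water and oxygen, had 1574 and 1077 normalized counts in the untreated mutant and 102945 and 113163 after H2O2. In wild type it had 953 and 949 untreated and 38141 and 35220 treated. The treated mutant libraries were the highest of the 8, and the untreated libraries of the strains lay close together. The rise in the mutant was 82.8-fold, 6.37 ± 0.15 on the log2 scale (limma, Benjamini-Hochberg adjusted p = 2.47e-08). It exceeded that of wild type by 1.11 ± 0.21 (limma, Benjamini-Hochberg adjusted p = 0.00557). Of the 15 largest rises by the rule used to name genes, that of ctt1 was the largest.

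The superoxide dismutase genes sod1 and sod2, of the cytosol and of mitochondria, rose by 1.31 ± 0.15 and 1.04 ± 0.06, and ccs1, the gene of the copper chaperone of the first, by 1.06 ± 0.07. Of these 3, the difference from wild type was called for ccs1 alone, at 0.48 ± 0.10 (limma, Benjamini-Hochberg adjusted p = 0.00951). That call was lost under quantile normalization and without the second treated mutant library. The peroxiredoxin gene bcp1 rose by 1.33 ± 0.09 and pmp20, another peroxiredoxin gene, by 0.96 ± 0.12, the latter less than in wild type by 0.97 ± 0.18. One member of the list, ccp1, at 0.44 ± 0.07, is annotated as a histone chaperone gene, and 90.1% of its exons lie opposite another gene.

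Thioredoxin genes rose in the mutant, with 9 of 9 genes called higher, against 35.8% of all tested genes. Their median was 1.78 (1.65 in wild type). Under quantile normalization 8 were called higher, with a median of 1.28. Thioredoxin reductase, the product of trr1 (SPBC3F6.03), feeds electrons from NADPH to thioredoxins. Its transcript had 7807 and 7851 normalized counts in the untreated mutant and 61894 and 69128 after H2O2, against 4834 and 4854 untreated and 12711 and 13997 treated in wild type. The treated mutant stood 4.91-fold above treated wild type in the mean. The log2 rise was 3.06 ± 0.08 in the mutant and 1.46 ± 0.08 in wild type, a difference of 1.60 ± 0.12 (limma, Benjamini-Hochberg adjusted p = 4.33e-05). The thioredoxin genes trx1 and trx2 rose by 1.83 ± 0.14 and 0.21 ± 0.07. The rise of trx2 was not called under quantile normalization, by DESeq2, or without any of 3 single mutant libraries.

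For tpx1, the main peroxiredoxin gene, and srx1, the gene of the sulfiredoxin that repairs it, the mutant started high. Normalized counts of tpx1 were 32099 and 28305 in the untreated mutant, close to the 29943 and 30566 of treated wild type, and reached 108934 and 111081 after H2O2. Its log2 rises, 1.87 ± 0.09 in the mutant and 2.11 ± 0.09 in wild type, gave a difference of -0.25 ± 0.13 that was not called. For srx1 the counts were 2596 and 3390 untreated and 16191 and 18017 treated in the mutant, and 158 and 194 untreated and 5261 and 6159 treated in wild type. The rise of srx1 was 2.52 ± 0.14 in the mutant and 5.01 ± 0.14 in wild type, yet the treated mutant lay 3.0-fold above treated wild type in the mean. Treated and untreated libraries of the mutant did not overlap for either gene. The methionine sulfoxide reductase genes mxr1 and mxr2, whose products repair oxidised methionine, rose by 1.20 ± 0.10 and 1.78 ± 0.12, with no called difference from wild type.

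**Figure D2:**
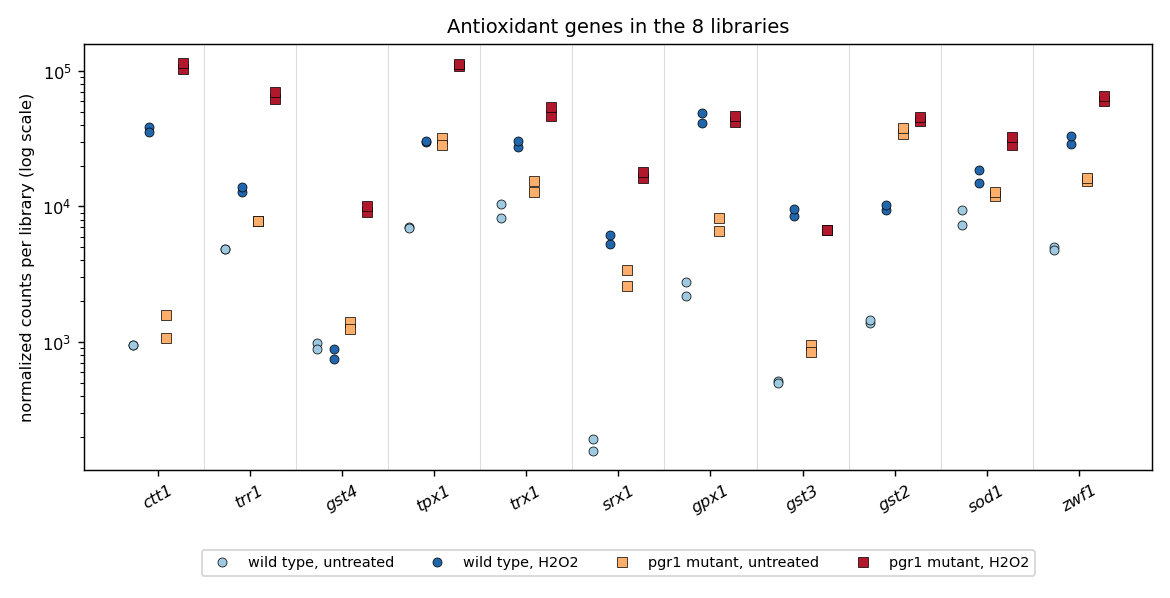
Normalized counts per library (log scale) of 11 antioxidant genes in wild type (circles) and the pgr1 mutant (squares), 2 libraries per group. The treated mutant stands highest for genes that include ctt1, trr1, gst4, tpx1, srx1 and gst2. For gst4 the 4 wild-type libraries lie together at 749 to 981.

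Glutathione genes were split. Of 21 genes of glutathione synthesis, transfer and turnover, 13 were called higher, 2 lower and 6 not called (11 higher and 4 lower under quantile normalization), with a median of 0.39 (0.73 in wild type). Calls in either direction were about as frequent as over all tested genes (68.4%). The synthesis genes gcs1 and gsa1, for the first and the second step, rose by 0.76 ± 0.06 and 0.39 ± 0.07, close to the 0.80 and 0.42 of wild type. The rise of gsa1 was 0.04 and not called under quantile normalization. The gene gst4 (SPCC1281.07c), a putative glutathione S-transferase, had 1410 and 1243 normalized counts untreated and 9054 and 10033 after H2O2 in the mutant. In wild type it had 981 and 892 untreated and 886 and 749 treated. The treated mutant libraries were the only high ones of the 8. The rise was 2.85 ± 0.10 in the mutant and the difference from wild type 3.05 ± 0.15 (limma, Benjamini-Hochberg adjusted p = 4.68e-06).

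The other transferase genes showed other patterns. The rise of gst3 was 2.90 ± 0.08, smaller than the 4.15 ± 0.08 of wild type by a called 1.25 ± 0.12. Normalized counts of gst2 were 34098 and 37793 in the untreated mutant and 42842 and 45249 after H2O2, above the 9401 and 10253 of treated wild type throughout. Its change in the mutant, 0.29 ± 0.09, was -0.25 under quantile normalization, and without the first untreated or the second treated mutant library it was not called. The strains therefore differed in the level of gst2 both before and after treatment. The gene gst1 was at -0.14 ± 0.25 and not called. The glutathione peroxidase gene gpx1 rose by 2.58 ± 0.15, less than in wild type by 1.59 ± 0.22, and its treated means in the strains differed by a ratio of 0.983. After treatment the strains had nearly the same level of gpx1. Of the glutaredoxin genes, whose products take their electrons from glutathione, grx1 and grx2 rose by 1.74 ± 0.16 and 0.41 ± 0.08, while grx3, grx4 and grx5 were at -0.10 ± 0.15, 0.15 ± 0.08 and 0.20 ± 0.10 and were not called. In wild type grx4 and grx5 were called higher, by 0.86 ± 0.08 and 0.54 ± 0.10. The monothiol members grx3, grx4 and grx5, known for iron-sulfur cluster work, were thus those with no call in the mutant. The formaldehyde dehydrogenase gene fmd1, of a glutathione-dependent enzyme, rose by 2.11 ± 0.07 in the mutant, more than in wild type by 1.03 ± 0.11 (limma, Benjamini-Hochberg adjusted p = 0.00024).

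NADPH feeds both reducing systems. Of 10 genes of its supply, 7 were called higher and 1 lower, against 35.8% and 32.6% of all tested genes. Under quantile normalization these counts were 6 and 2. The list median was 0.46 (1.01 in wild type). The glucose 6-phosphate dehydrogenase gene zwf1, at the entry of the pentose phosphate pathway, had 15365 and 16093 normalized counts untreated and 59891 and 64857 treated in the mutant, a rise of 1.99 ± 0.10 with groups far apart. The next NADPH-making step, gnd1, rose by 1.65 ± 0.09, and tal1, the transaldolase gene, by 1.50 ± 0.08. These steps belong to the oxidative and non-oxidative arms of the pathway. The rise of zwf1 was called smaller than in wild type, with a difference of -0.67 (limma, Benjamini-Hochberg adjusted p = 0.00745). That of tal1 was called larger, by 0.43, and gnd1 had no called difference. The 1 gene called lower, rki1 of the non-oxidative arm, was at -0.6. The NADH kinase gene pos5 was called in opposite directions, with 522 and 526 untreated and 620 and 662 treated normalized counts in the mutant and 526 and 607 untreated and 271 and 241 treated in wild type. The difference of its responses was 1.43 ± 0.15 (limma, Benjamini-Hochberg adjusted p = 0.00025). Its own rise in the mutant, 0.29 ± 0.10, was not called by DESeq2 or without any single mutant library.

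Oxidoreductases of the flavin and aldo-keto families were called higher in 10 of 12 cases, against 35.8% of all tested genes. Their median was 1.03 (1.48 in wild type). Under quantile normalization 8 were called higher, with a median of 0.5. The difference of responses was called lower in the mutant for 9 and higher for 2, against 15.4% and 12.1% of all tested genes. The median ratio of mutant to wild type over the list was 5.28 before and 3.38 after treatment. The aldo-keto reductase gene yak3 went from 2492 and 2611 to 19338 and 20822 normalized counts in the mutant and from 1113 and 1060 to 2518 and 2314 in wild type. The difference of responses was 1.82 ± 0.10 (limma, Benjamini-Hochberg adjusted p = 7.07e-06), and the treated mutant was above every other library. Aldo-keto reductases turn reactive aldehydes and ketones into alcohols. For the flavin oxidoreductase gene SPBC23G7.10c the mutant moved from 5090 and 5243 to 24204 and 26644, while treated wild type had 1468 and 1665. Its rise was 2.30 ± 0.17 in the mutant and 3.62 in wild type. That difference was -1.32 (limma, Benjamini-Hochberg adjusted p = 0.00407), so the rise was called smaller in the mutant. The dehydrogenase gene osr1 rose by 2.04 ± 0.08 in the mutant and by 1.35 in wild type, a called difference of 0.69. Its treated mutant mean was 44.1-fold above treated wild type, and on the log2 scale most of this gap was there before treatment. Another gene holds 5% or more of the 31-base stretches of osr1, so reads may be shared.

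The core stress genes, targets of Sty1 and Atf1, rose by less than in wild type and reached similar levels. Of 23 genes, 22 were called higher and 1 lower in the mutant, with a median of 2.12 against 4.15 in wild type. The difference of responses was called lower in the mutant for 21 genes and higher for 1, ctt1, against 15.4% and 12.1% of all tested genes. The median ratio of mutant to wild type was 3.7 before and 0.983 after treatment. Before treatment 19 of the 23 means were at least 2-fold above wild type, and after it 19 of 23 were within 2-fold and 4 over 2-fold above.

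The gene ddr48 (SPAC23H3.15c) shows this most strongly. In the mutant it had 6879 and 8990 normalized counts untreated and 73790 and 78148 treated, and in wild type 131 and 170 untreated and 85148 and 103328 treated. The treated groups were close and the untreated groups were far apart, with a mutant to wild type ratio of 52.6. The rise was 3.27 ± 0.16 in the mutant and 9.28 ± 0.16 in wild type, a difference of -6.01 ± 0.22 (limma, Benjamini-Hochberg adjusted p = 1.82e-06).

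The stress gene lsd90 went from 3048 and 3549 to 25431 and 21718 in the mutant, and ish1, of a nuclear envelope protein, from 4462 and 4667 to 45758 and 48429. For both the difference from wild type was called, at -5.69 ± 0.21 and -2.68 ± 0.15. The small heat shock protein gene hsp16 rose by 1.11 ± 0.11 in the mutant and 4.49 ± 0.11 in wild type, and its untreated mutant libraries, at 18774 and 20936, were above the untreated wild-type ones at 1416 and 1662. The metallothionein gene zym1, whose product binds metal ions, rose by 0.82 ± 0.18 from 7835 and 10600 to 15128 and 17136, all above the 4907 and 6807 of treated wild type. The strains thus differed in zym1 at both times. The calcium pump gene cta3 was the one that fell, from 1499 and 1836 to 91.7 and 102 normalized counts. Its untreated mutant libraries were the high ones of the 8, and wild type had 30.6 and 61.1 untreated and 42.8 and 211 treated. The change of cta3 was -4.09 ± 0.61 (limma, Benjamini-Hochberg adjusted p = 0.000304).

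**Figure D3:**
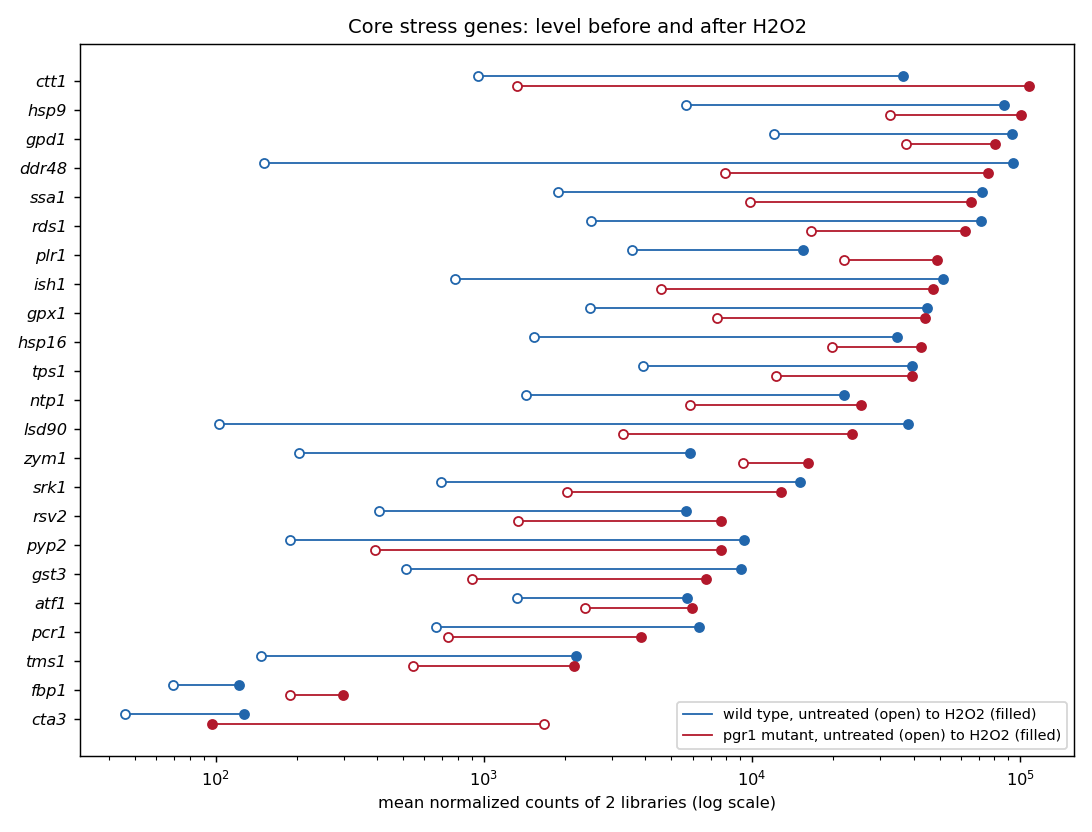
Mean normalized counts of 2 libraries (log scale) before (open) and after (filled) H2O2 for 23 core stress genes in wild type and the pgr1 mutant. The filled points of the strains lie within 2-fold of each other for 19 genes, while the open points of the mutant lie to the right for 19 genes by at least 2-fold.

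Genes with high folds in the mutant also came from carbon metabolism. Of 10 trehalose and glycerol genes, 8 were called higher and none lower, against 35.8% and 32.6% of all tested genes. The list median was 1.35 (2.39 in wild type). The difference of responses was called lower in the mutant for 9 of these 10 genes and higher for 1. The glycerol 3-phosphate dehydrogenase gene gut2 had 851 and 584 normalized counts untreated and 11854 and 11524 treated, a rise of 4.05 ± 0.14 (limma, Benjamini-Hochberg adjusted p = 8.33e-08). The lowest treated library was over 8-fold above the highest untreated one. The trehalose genes ntp1, which breaks this protective sugar down, and tps1, which makes it, rose by 2.12 ± 0.06 and 1.69 ± 0.10. The rises of gut2, ntp1 and tps1 were called smaller than in wild type, with differences of -1.53, -1.81 and -1.65. The dihydroxyacetone kinase gene dak2 rose in the mutant, from 612 and 744 to 1753 and 2123, and fell in wild type by 0.46 ± 0.14. The difference was 1.97 ± 0.20 (limma, Benjamini-Hochberg adjusted p = 0.000201).

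Other large rises were those of the phosphoketolase family gene SPBC24C6.09c (4.29 ± 0.18), the succinate-semialdehyde dehydrogenase gene ssd2 (4.18 ± 0.22), the dehydrogenase family gene SPACUNK4.17 (4.29 ± 0.16) and the enolase gene eno102 (3.72 ± 0.23). Normalized counts of SPBC24C6.09c were 739 and 678 untreated and 13727 and 14046 treated in the mutant, and 56.9 and 35.6 untreated and 17457 and 21052 treated in wild type. The invertase gene inv1 rose by 2.63 ± 0.27 and pka1, the gene of the glucose-sensing kinase, by 2.29 ± 0.06, both less than in wild type. The hexose transporter gene ght5 fell by 2.30 ± 0.18, though reads may be shared with its close copies. Of 18 glycolysis genes, 2 were called higher and 7 lower in the mutant, and 8 and 2 in wild type. Lower calls were close in share to the 32.6% of all tested genes, while quantile normalization gave 2 higher and 15 lower in the mutant. Pyruvate decarboxylase and alcohol dehydrogenase catalyse the last steps from sugar to ethanol. The pyruvate decarboxylase gene pdc201 went from 961 and 1219 to 203 and 183 in the mutant, while wild type had 40.3 and 40.1 untreated and 32.4 and 42.1 treated. The adh1 transcript, of alcohol dehydrogenase, fell by 1.01 ± 0.13.

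Low genes were among the largest rises too. The adducin gene SPBC1289.14 had 16.2 and 15.1 normalized counts untreated and 798 and 727 treated, and the dehydrogenase gene SPCC1739.08c had 7.19 and 13.4 untreated and 368 and 299 treated. The transporter gene SPCC794.04c went from 92.6 and 42.8 to 2079 and 2650. For such genes the scale of log2(value + 1) understates the fold. The treated and untreated libraries did not overlap for any of the 3.

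The rest of the 15 largest rises were those of hhy1, a hydrolase gene (4.04 ± 0.26), smp4 (3.81 ± 0.24), SPBC11C11.06c (3.69 ± 0.17), the sugar phosphate enzyme gene SPBPB21E7.02c (4.23 ± 0.48) and SPCC757.02c (4.02 ± 0.34). The reads of SPCC757.02c are uncertain, since all of its exons lie opposite another gene. SPBPB21E7.02c stayed low, at 56.2 and 73.7 normalized counts after H2O2. Among the 15 largest falls were also the sorbose reductase gene SPAC8E11.10 (-4.00 ± 0.14) and the uncharacterised genes SPBPB7E8.01 (-3.66 ± 0.11) and SPBC19C7.04c (-3.50 ± 0.29). SPAC8E11.10 went from 5685 and 4602 to 341 and 297 normalized counts, and both groups were tight against this gap. For SPBC19C7.04c the fall exceeded that of wild type by 2.79 ± 0.40 (limma, Benjamini-Hochberg adjusted p = 0.00139), while the other 2 had no called difference.

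To show what precedes some of the genes that moved, the 250 bases before the annotated start are given, from RefSeq assembly ASM294v3, which is not the submitters' build. Capitals in ctt1 (chrIII:58834-59083, minus strand) and gut2 (chrIII:1843257-1843506, minus strand) mark TGACGT, the core of the site bound by Atf1-type factors, on either strand. Capitals in tpx1 (chrIII:2085720-2085969, minus strand) and caf5 (chrII:3166331-3166580, plus strand) mark TTAGTCA, a site of Pap1-type factors, on either strand.
ctt1: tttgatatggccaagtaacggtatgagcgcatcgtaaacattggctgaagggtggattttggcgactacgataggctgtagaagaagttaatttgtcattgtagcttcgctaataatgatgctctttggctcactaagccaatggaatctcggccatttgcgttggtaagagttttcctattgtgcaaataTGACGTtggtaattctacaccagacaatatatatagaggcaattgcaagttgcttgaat
gut2: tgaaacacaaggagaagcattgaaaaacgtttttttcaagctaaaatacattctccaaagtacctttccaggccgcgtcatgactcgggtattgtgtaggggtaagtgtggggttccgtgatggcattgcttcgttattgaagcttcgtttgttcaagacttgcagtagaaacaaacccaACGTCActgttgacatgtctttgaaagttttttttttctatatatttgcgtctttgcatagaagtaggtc
tpx1: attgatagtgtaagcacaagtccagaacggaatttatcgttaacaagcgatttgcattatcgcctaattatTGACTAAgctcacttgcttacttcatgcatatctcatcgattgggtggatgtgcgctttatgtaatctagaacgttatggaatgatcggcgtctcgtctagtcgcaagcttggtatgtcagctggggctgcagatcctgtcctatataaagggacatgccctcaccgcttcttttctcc
caf5: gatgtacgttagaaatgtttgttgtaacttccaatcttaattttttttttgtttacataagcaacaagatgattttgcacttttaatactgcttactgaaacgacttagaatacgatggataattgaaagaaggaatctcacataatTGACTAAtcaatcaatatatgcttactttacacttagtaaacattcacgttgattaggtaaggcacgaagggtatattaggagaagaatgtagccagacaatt

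The matches begin 59 bases before the start of ctt1, 70 before that of gut2, 179 before that of tpx1 and 103 before that of caf5. In windows from 250 bases before to 50 after each start, TGACGT was found in 5.93% of 5096 promoters. It was found in 18.7% of 482 genes at least 2-fold higher in the mutant and 2.30% of 392 at least 2-fold lower. The core stress list held it in 9 of 23 promoters. Of 219 genes with a difference of responses called at least 2-fold lower in the mutant 19.6% held it. Of 116 with a difference called at least 2-fold higher 6.03% did. A lower value takes in genes that fell more in the mutant, and a higher one genes that fell less. TTAGTCA was found in 4.49% of all promoters and in 6 of 16 of the Pap1 list. It was found in 11.2% of the genes with the higher and 4.57% of those with the lower difference. A palindromic site of Pap1-type factors, TTACGTAA, went the other way, with 0 of 116 and 6 of 219. This palindrome was found in 0.471% of all promoters and in 2.28% of the genes at least 2-fold higher in the mutant. A match is a description of letters and not a bound site.

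Genes of the proteasome, which breaks down tagged proteins, rose in the mutant. All 32 were called higher, from 0.2 to 1.26, against 35.8% of all tested genes. The median of these 32 was 0.89 (0.79 in wild type and 0.48 in the mutant under quantile normalization, with 30 higher). The difference from wild type was called for 3 of them. The core subunit gene pre9 went from 3405 and 3625 to 8148 and 8639 normalized counts and the regulatory ATPase gene rpt6 from 5516 and 5215 to 12516 and 12578, with no overlap of groups. Of 13 ubiquitin genes 11 were called higher, with the polyubiquitin gene ubi4 at 1.73 ± 0.13 and uba1, of the activating enzyme, at 1.53 ± 0.07. Of 34 genes of autophagy and vacuolar proteases, which take cell parts to the vacuole for breakdown, 29 were called higher and 2 lower, with a median of 0.72 and atg101 at 1.41 ± 0.12.

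Chaperone genes, whose products refold proteins, were called higher in 11 and lower in 3 of 18 cytosolic cases. Of all tested genes 35.8% were higher and 32.6% lower. The list median was 0.82 (1.16 in wild type). The Hsp70 gene ssa1 had 10707 and 8923 normalized counts untreated and 69884 and 61287 treated, and the treated wild type had 77622 and 66197, in the same range. The rise was 2.74 ± 0.13, less than in wild type by 2.51 ± 0.18 (limma, Benjamini-Hochberg adjusted p = 3.98e-05). The disaggregase gene hsp104 rose by 2.24 ± 0.18, the heat shock factor gene hsf1 by 1.20 ± 0.06, and hsp90 was at 0.28 ± 0.13 and not called. The rises of hsp104 and hsf1 were called smaller than in wild type, with differences of -2.05 and -0.37. The chaperone genes ssz1 and sks2 fell. With each library left out in turn their changes ranged from -0.49 to -0.38 and from -0.34 to -0.25. Hsp70 and Hsp104 proteins are known to pull protein aggregates apart together. In mitochondria hsp78 rose by 1.92 ± 0.11, called smaller than in wild type with a difference of -1.36. Of 13 mitochondrial genes 8 were called higher and 1 lower (5 and 4 under quantile normalization). Calls in either direction were about as frequent in this list as over all tested genes (68.4%). The 250 bases before ssa1 (chrI:2297965-2298214, minus strand) carry heat shock elements, GAANNTTC or TTCNNGAA, in capitals, where the last pair overlaps.
ssa1: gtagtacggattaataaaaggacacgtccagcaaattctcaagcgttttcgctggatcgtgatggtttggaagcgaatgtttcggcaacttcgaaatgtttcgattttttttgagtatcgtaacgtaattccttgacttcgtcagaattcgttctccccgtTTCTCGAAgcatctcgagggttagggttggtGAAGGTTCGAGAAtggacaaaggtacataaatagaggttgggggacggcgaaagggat

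GAANNTTC was found in 10 of 18 promoters of the cytosolic chaperone list and in 11.1% of all promoters.

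**Figure D4:**
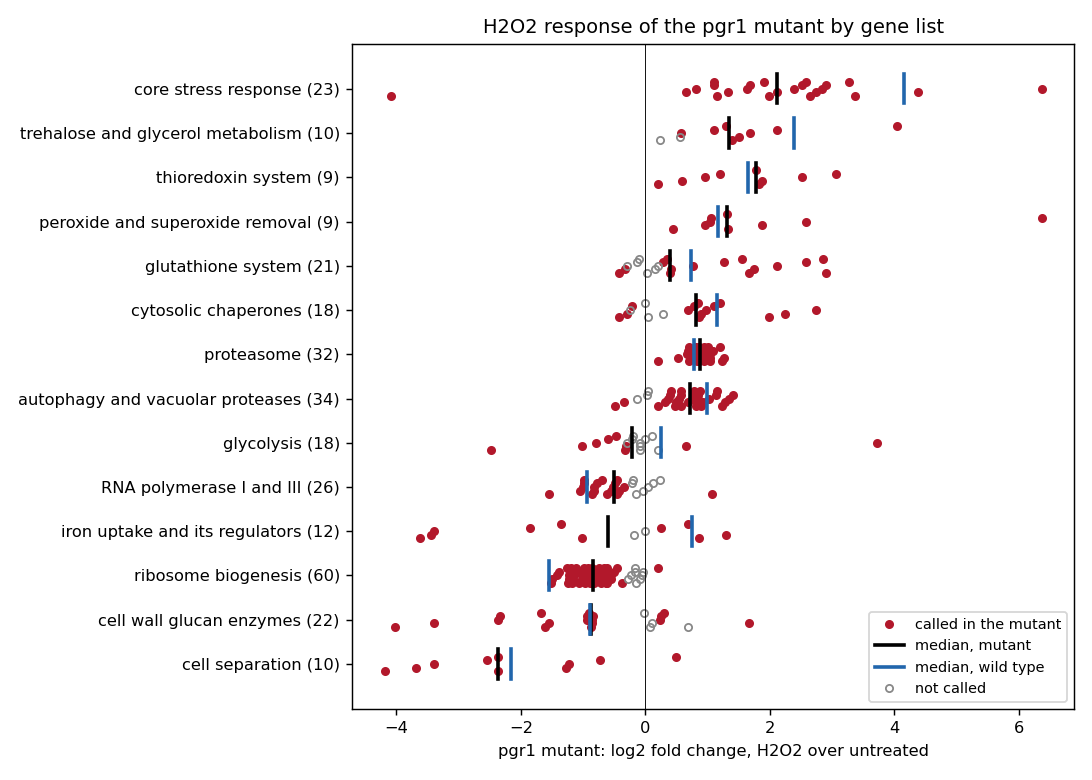
Log2 fold changes with H2O2 in the pgr1 mutant (x axis) of the tested genes of 14 lists, with their number in brackets; red points were called, open points were not, and bars mark the list median in the mutant and in wild type. The median of the core stress list lies at 2.12 in the mutant and 4.15 in wild type, while those of the proteasome list lie close together.

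Several iron uptake genes fell in the mutant from a high untreated level. These genes take up reduced iron, siderophores or heme, and the repressor Fep1 is known to keep them low when iron is ample. Of 12 genes of the list, 4 were called higher and 6 lower, against 35.8% and 32.6% of all tested genes, with a median of -0.6 in the mutant and 0.75 in wild type. The difference was called lower in the mutant for 9 of them, against 15.4% of all tested genes. The ferroxidase gene fio1 (SPAC1F7.08) had 2265 and 2558 normalized counts untreated and 187 and 203 treated in the mutant, and 355 and 861 untreated and 234 and 522 treated in wild type. Its partner fip1, the iron permease gene, had 9033 and 11307 untreated and 853 and 1005 treated in the mutant, and 1032 and 2608 untreated and 1115 and 3347 treated in wild type. The untreated mutant libraries were the high ones of the 8 for both genes, and the wild-type libraries of a group stood apart from each other.

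The falls were 3.62 ± 0.42 for fio1 (limma, Benjamini-Hochberg adjusted p = 6.9e-05) and 3.45 ± 0.51 for fip1. The differences from wild type were -2.96 ± 0.60 and -3.68 ± 0.72. With each of the 8 libraries left out in turn they ranged from -3.60 to -2.32 and from -4.47 to -2.89. The siderophore transporter genes str1 and str3 fell by 1.35 ± 0.25 and 3.39 ± 0.61, and for str3 the difference from wild type, -2.04 ± 0.86, was not called. Siderophores are small molecules that bind ferric iron outside the cell. The ferric reductase gene frp1 moved in opposite directions, from 8785 and 11053 to 2640 and 2797 in the mutant and from 890 and 1779 to 4335 and 9018 in wild type. The difference was -4.17 ± 0.51 (limma, Benjamini-Hochberg adjusted p = 0.000629).

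Other genes of the same list did not fall. The heme transporter gene shu1 had 3762 and 4963 untreated and 4077 and 4600 treated in the mutant, where the libraries overlapped, and 0.875 and 2.73 untreated and 67.1 and 298 treated in wild type. The siderophore synthesis genes sib1 and sib2 rose by 0.26 ± 0.07 and 1.29 ± 0.14, and the second reductase gene, frp2, by 0.68 ± 0.18. The rise of sib1 was 0.09 and not called under quantile normalization, nor was it called without any of 3 single mutant libraries, and that of frp2 was not called without the first untreated or the second treated mutant library. The synthesis gene sib2 and the transporter genes str1 and str3 thus moved in opposite directions in the mutant. Of the regulators, fep1 fell by 1.01 ± 0.14 and php4, whose product represses iron-using genes when iron is low, rose by 0.87 ± 0.11. The genes fio1 and fip1 lie head to head on chromosome I. The 250 bases before fio1 (chrI:4234822-4235071, plus strand) hold 1 match, in capitals, to TGATAA, a form of the site of Fep1-type factors. The letters AGATAA, which were not searched for, also occur in this sequence, which lies between the 2 genes.
fio1: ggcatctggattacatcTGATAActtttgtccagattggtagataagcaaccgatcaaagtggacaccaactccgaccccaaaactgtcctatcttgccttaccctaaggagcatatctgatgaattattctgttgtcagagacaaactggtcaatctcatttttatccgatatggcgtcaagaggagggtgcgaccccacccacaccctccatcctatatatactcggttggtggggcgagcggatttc

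TGATAA was found in 7 of 12 promoters of the iron uptake list and in 26.8% of all promoters.

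**Figure D5:**
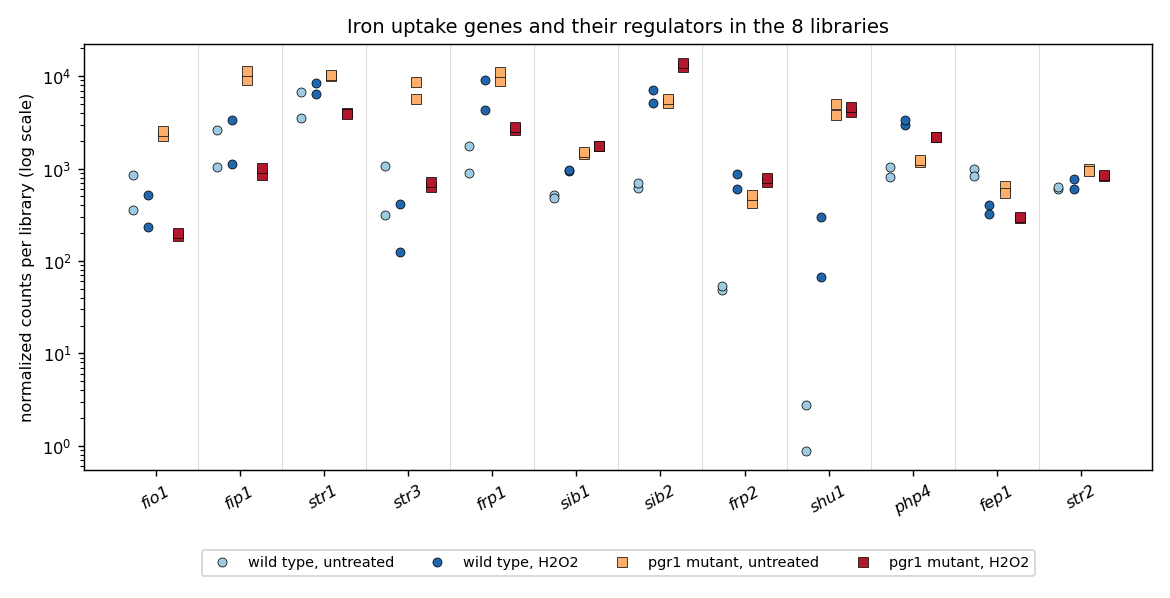
Normalized counts per library (log scale) of 12 iron uptake genes and regulators in wild type (circles) and the pgr1 mutant (squares). The untreated mutant is high and the treated mutant low for fio1, fip1 and str3, the treated mutant is highest for sib2, and the wild-type libraries of a group lie apart for fio1, fip1, str3 and frp1.

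Copper and sulfur genes were called in both directions. The copper transporter genes ctr4 and ctr5, of the plasma membrane, fell by 2.66 ± 0.20 and 1.29 ± 0.12, and ctr6, of the vacuole, rose by 1.63 ± 0.15. None of these 3 had a called difference from wild type. Of 16 genes of sulfur assimilation 7 were called higher and 9 lower, against 35.8% and 32.6% of all tested genes. Under quantile normalization the counts were 3 and 10, and the median moved from -0.46 to -0.77. The homocysteine synthase gene met17 went from 4777 and 3949 to 842 and 680 in the mutant, a fall of 2.52 ± 0.30, while in wild type it was at -0.47 ± 0.30 and not called. That difference was -2.05 ± 0.42 (limma, Benjamini-Hochberg adjusted p = 0.00729). The low libraries of met17 were those of the treated mutant. The S-adenosylmethionine synthetase gene sam1 fell by 2.21 ± 0.16 and did not differ in a called way from wild type. Of 18 genes of proteins that use or store iron, 4 were called higher and 10 lower, against the same shares. Among them the vacuolar iron transporter gene pcl1 was at -2.20 ± 0.14. One of the 4 that rose, lys4, is annotated as a homocitrate synthase gene.

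Cell separation genes fell. Of 10 genes 9 were called lower and 1 higher, against 32.6% of all tested genes lower, with medians of -2.37 in the mutant and -2.16 in wild type. These genes serve to cut daughter cells apart after division. The glucanase gene eng1 went from 3166 and 4332 to 329 and 375 normalized counts in the mutant and the chitinase family gene cts2 from 3278 and 3973 to 271 and 287. The falls were 3.39 ± 0.20 for eng1 (limma, Benjamini-Hochberg adjusted p = 1.25e-06) and 3.69 ± 0.25 for cts2. In both genes the lowest untreated library was over 8-fold above the highest treated one, and no difference from wild type was called. The gene called higher was sep1, a forkhead factor gene, at 0.50 ± 0.09.

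Most genes of cell wall glucan fell. Of 22 genes, which include pwp1 and gmh1 of other annotated function, 14 were called lower and 4 higher. Of all tested genes 32.6% were lower and 35.8% higher. The list medians were -0.87 in the mutant and -0.88 in wild type. The glucanosyltransferase gene gas1, which links wall glucan, had 15962 and 20549 normalized counts untreated and 1016 and 1214 treated. Its fall was 4.03 ± 0.19, with no called difference from wild type. The 4 glucan synthase genes bgs1, bgs3, bgs4 and ags1 fell by 0.88 ± 0.07, 0.84 ± 0.09, 0.91 ± 0.07 and 0.93 ± 0.10. The glucosidase gene exg3 rose by 1.67 ± 0.06. The surface glycoprotein gene pfl3 fell from 4656 and 5118 to 318 and 381, more than in wild type by 1.07 ± 0.14.

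Of 8 phosphate genes 5 were called lower and 1 higher, against 32.6% and 35.8% of all tested genes. The phosphate transporter gene pho842 had 2663 and 3236 untreated and 172 and 207 treated normalized counts in the mutant, and 1935 and 2912 untreated and 38.2 and 54.8 treated in wild type. The fall of 3.95 ± 0.22 was smaller than in wild type by 1.71 ± 0.31 (limma, Benjamini-Hochberg adjusted p = 0.00445). The gene pho84 fell by 2.69 ± 0.12, though it shares sequence with a copy. Phosphate transporters bring phosphate in across the plasma membrane. In heme synthesis, the pathway gene hem3 fell from 1434 and 1125 to 126 and 122, a change of -3.35 ± 0.18 against -3.41 ± 0.18 in wild type. Of 21 tested markers of nitrogen starvation and mating, another state of these cells, 13 were called lower and 4 higher, against the same shares. The pheromone gene mfm2 was at -3.66 ± 0.28.

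Ribosome assembly genes fell, most of them by less than in wild type. Of 60 genes 51 were called lower and 1 higher, against 32.6% and 35.8% of all tested genes. The median of these 60 was -0.84 in the mutant and -1.55 in wild type. The difference of responses was called higher in the mutant for 44 of them, against 12.1% of all tested genes, and lower for none. The processing factor gene nop52 went from 867 and 1008 to 350 and 310 in the mutant and from 1282 and 1363 to 303 and 241 in wild type. Its difference of 0.78 ± 0.18 was not called without the first untreated or the first treated mutant library. The single gene called higher, tif6 at 0.21 ± 0.06, was at -0.23 under quantile normalization.

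Of 26 genes of RNA polymerases I and III, which make ribosomal and transfer RNA, 18 were called lower and 1 higher, with medians of -0.5 in the mutant and -0.95 in wild type. The gene called higher was maf1, the gene of the repressor of polymerase III, at 1.07 ± 0.14. Of 136 cytosolic ribosomal protein genes 31 were called lower and 3 higher under the deposited scaling, a lower share than the 32.6% of all tested genes called lower, and 117 lower and 0 higher under quantile normalization. Their median was -0.1 and -0.46 under these scalings. The number called lower thus depended on the scaling.

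Some genes that rose in the mutant were not called in wild type. The alanine racemase gene alr2 had 83.6 and 107 normalized counts untreated and 746 and 989 treated in the mutant, and 149 and 136 untreated and 121 and 157 treated in wild type. The gene sec72, of a Sec7 domain protein of vesicle traffic, had 1482 and 1370 untreated and 8717 and 9992 treated in the mutant, and 1455 and 1342 untreated and 1397 and 1532 treated in wild type. For both the treated mutant libraries were the only high ones. The differences of responses were 3.21 ± 0.27 (limma, Benjamini-Hochberg adjusted p = 8.74e-05) and 2.64 ± 0.13 (limma, Benjamini-Hochberg adjusted p = 4.68e-06). The riboflavin synthesis gene rib4 rose in both strains, from 1839 and 2019 to 18717 and 21584 in the mutant and from 1254 and 1377 to 3288 and 3227 in wild type, a difference of 2.07 ± 0.12.

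Calls in opposite directions, with a called difference, were made for 81 genes (1.62% of those tested), 47 of them higher in the mutant. The flavin reductase gene SPCC4B3.06c went from 989 and 1067 to 3920 and 4593 in the mutant and from 424 and 421 to 320 and 300 in wild type. The uncharacterised gene SPCC576.19c rose by 2.03 ± 0.27 in the mutant and fell by 0.96 ± 0.27 in wild type. The amylase family gene SPCC11E10.09c rose by 1.30 ± 0.12 and fell by 2.29 ± 0.12, but 67.0% of its exons lie opposite another gene.

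Further lists were called in both directions in the mutant, to be read against 35.8% higher and 32.6% lower of all tested genes. Of 53 respiratory chain and ATP synthase genes 20 were called higher and 15 lower, and of 39 mitochondrial ribosome genes 16 and 8. Of 17 S-phase genes 7 were called higher and 6 lower. Among these, cdt2, which guides the breakdown of replication factors, rose by 1.76 ± 0.15, and mik1, a kinase gene that delays mitosis, fell by 1.85 ± 0.13. Of 26 DNA repair genes 13 were called higher and 6 lower. The DNA glycosylase gene mag2 was at 2.14 ± 0.25 and the nucleotide excision repair gene rhp14 at 1.76 ± 0.09. The repair genes msh6 and ung1, the latter also of a DNA glycosylase, fell. With each library left out in turn their changes ranged from -1.03 to -0.95 and from -0.92 to -0.70. Both glycosylase and excision repair genes remove damaged bases or strands. Of 12 arginine genes 6 were called higher and 3 lower, and of 14 lysine and leucine genes 5 and 3, with lys4 at 1.30 ± 0.13. Under quantile normalization these counts were 3 and 2 for arginine and 2 and 7 for lysine and leucine, where the balance turned.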

How the data were processed

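Poly(A) RNA was extracted with hot phenol and sequenced from TruSeq stranded libraries, per the labels' protocols. The authors deposited 1 table of normalized signal per gene, gene counts divided by DESeq2 size factors. The submitters' processing notes name FastQC, Trimmomatic, Salmon and DESeq2, and the build ASM294v2; the strand setting of the counting is not given in the sources used here. Per library, 99.98% or more of the values gave whole reads within 0.05 reads, so count tests could be run as alternatives.

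The table held 5165 genes and 1 nameless entry, not used; 5129 identifiers matched the RefSeq annotation and 36 did not. Values were analysed as log2(value + 1), which understates the change of low genes. The model in limma 3.58.1 (R 4.3.3, trended prior variance) held 4 group means over the 8 libraries, which leaves 4 residual degrees of freedom; p-values were adjusted by Benjamini-Hochberg over 5015 genes. The difference of responses is an interaction term. Alternatives were other pseudocounts, filters and scalings, fewer libraries, a replicate block, edgeR 4.0.16 and DESeq2 1.42.0. The scripts were tested on simulated data. The 2 libraries of each group differed by more than counting noise, with a chi-square per degree of freedom of 7.81 to 24.0. This does not show that they came from separate cultures.

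Copies are called uncertain where at least 5% of a gene's 31-base stretches occur in another gene, and antisense overlap where more than 50% of its exons lie opposite another gene. The genes, lists and comparison were chosen with earlier results of these data known. Named genes are the 15 largest rises and falls in the mutant and the 6 largest differences each way (called, mean of at least 20 in a group, libraries not overlapping, no group at 0, no transposons or non-coding RNAs; 1 of these genes is not reported here), the 2 largest rises and falls of each of 37 lists, and a set of antioxidant, stress, iron and wall genes. Added after their values were seen were frp1, frp2, caf5, SPCC4B3.06c, pos5, rib4, tps1, gpd1, osr1, hsf1, ish1, ntp1, ccs1, bcp1, pmp20, mxr1, mxr2, fmd1, tal1, SPBC23G7.10c, dak2, hsp90, sib1, fep1, ccp1, bgs1, bgs3, bgs4 and ags1.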

Additional observations from a re-analysis of the deposited data

Results flagged for a closer look

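The results below are called differences between the H2O2 response of the pgr1 mutant and that of wild type. They comprise the 2 counts over all tested genes and the named genes whose difference was at least 8-fold, each a test of the difference itself in limma.

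The response was called higher in the mutant for 606 genes and lower for 772. Single libraries touch both counts, as the report gives.

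Most of the large differences were negative and belonged to genes with a high untreated level in the mutant. They were -6.01 ± 0.22 for ddr48, -5.69 ± 0.21 for lsd90, -5.21 ± 0.86 for cta3, -3.99 ± 0.26 for zym1 and -3.38 ± 0.15 for hsp16, all of the core stress list. The untreated ratio of mutant to wild type was 52.6 for ddr48, 31.9 for lsd90, 44.9 for zym1 and 12.9 for hsp16. With each library left out in turn the difference of cta3 ranged from -6.35 to -4.07. Metabolic genes gave -4.41 ± 0.26 for the phosphoketolase family gene SPBC24C6.09c, -3.47 ± 0.31 for ssd2 and -3.03 ± 0.22 for SPACUNK4.17. For the L-lactate dehydrogenase gene SPAPB1A11.03 the difference was -5.03 ± 0.49, but all of its exons lie opposite another gene. With each library left out in turn it ranged from -5.70 to -4.36. Its rise in the mutant was not called without the first untreated or the second treated library. The uncharacterised gene SPAC3G6.07 gave -5.06 ± 0.27, with 70.1 and 101 normalized counts in the untreated mutant and 1.75 and 1.82 in untreated wild type.

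Iron genes gave -5.75 ± 0.82 for shu1, -4.17 ± 0.51 for frp1, -3.68 ± 0.72 for fip1 and -3.14 ± 0.25 for frp2. The wild-type libraries of a group stood apart for shu1, frp1 and fip1. With each library left out in turn the difference of shu1 ranged from -6.82 to -4.68, that of fip1 from -4.47 to -2.89 and that of frp1 from -4.70 to -3.64.

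Differences in the other direction were 3.59 ± 0.17 for SPCC11E10.09c, whose reads are uncertain, 3.21 ± 0.27 for alr2 and 3.05 ± 0.15 for gst4.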

How the results depend on the processing

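Over 19 alternatives, the counts of genes called with H2O2 in the mutant and in wild type stayed within 1.5 times the reported ones, as did those of at least 2-fold changes. Leaving out each of the 8 libraries in turn gave 1482 to 1816 genes higher and 1349 to 1667 lower in the mutant, 467 to 504 at least 2-fold higher and 376 to 421 at least 2-fold lower. The counts of called differences ranged from 315 to 605 for a higher value in the mutant and from 461 to 797 for a lower one. The lowest values came from leaving out the second treated mutant library, and 489 lower values were called without the first. These fits have fewer samples. Quantile normalization gave 1591 genes higher and 1796 lower in the mutant, and edgeR on recovered reads gave 1728 and 1722. For named genes, 5486 of 5652 recomputed values kept their direction and side of the threshold, 156 lost the call, 6 gained it and 4 reversed. The reversals, all under quantile normalization, were -0.26 for grx4, -0.07 for gas2, -0.23 for tif6 and -0.25 for gst2; the cause was not tested.

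The labels do not say that a replicate number marks a shared culture or day, and the deviations of same-numbered libraries correlated at 0.154 between the treated and untreated mutant and at 0.359 between those of wild type. Between the strains the correlation was 0.403 for the untreated and -0.00381 for the treated groups, and for the other pairs of groups 0.103 and -0.154, so not every pair was over 0.1. With the replicate number as a block, 1867 genes were higher and 1714 lower in the mutant, 490 and 402 of them at least 2-fold, and 685 and 876 differences were called.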

Other observations

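Copper and zinc genes, those named above included, were called in both directions in the mutant, as were 35.8% higher and 32.6% lower of all tested genes. Of 10 genes 5 were called higher and 4 lower. Of 15 genes of iron-sulfur cluster assembly 9 were called higher and 2 lower, with a median of 0.4 in the mutant and 0.05 in wild type. Of 19 sterol and heme genes 7 were called higher and 10 lower (4 and 12 under quantile normalization). Of 10 histone genes, several of which share sequence, 3 were called higher and 4 lower (1 and 5 under quantile normalization). Of 13 hexose transport and glucose repression genes 6 were called higher and 3 lower. Of 9 genes that serve as strain markers 3 were called higher and 3 lower (1 and 4 under quantile normalization), with a median ratio of mutant to wild type of 0.951 before treatment.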
